A study of Mus musculus with 8 samples.

Results

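The RNA of 8 mouse J-domain genes was described here, out of 28785 genes listed in at least 1 library. They were chosen as 3 class A genes (Dnaja1, ENSMUSG00000028410; Dnaja2, ENSMUSG00000031701; Dnaja4, ENSMUSG00000032285) and 5 class B genes (Dnajb1, ENSMUSG00000005483; Dnajb2, ENSMUSG00000026203; Dnajb4, ENSMUSG00000028035; Dnajb5, ENSMUSG00000036052; Dnajb6, ENSMUSG00000029131), by identifier as members of 1 gene family and not by a threshold on their values, with earlier results of these libraries known. All 8 were listed in all 4 libraries. The cells were mouse embryonic fibroblasts on a C57BL/6J background, with the genotype TSC2+/+ in every group. Heat-shocked cells were held at 42 °C for 1 h and then recovered at 37 °C for 3 h, and control cells had no heat shock. Cells of each condition were separated into a chromatin pellet and a cytoplasmic fraction, in lysis buffers that contained the RNA polymerase II inhibitor amanitin, which gave 4 RNA-seq libraries with 1 library per group.

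J-domain proteins, also called HSP40 proteins, deliver unfolded proteins to HSP70 chaperones and stimulate the ATPase of HSP70 through a conserved J domain. In members of both classes a region rich in glycine and phenylalanine follows the J domain, and class A members carry a zinc-binding cysteine-rich region after it that class B members lack. After heat shock, HSF1 binds heat shock elements, which are repeated inverted GAA units near the start of chaperone genes, and raises their transcription.

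With 1 library per group no difference has a replicate check, no significance test was made, and no p-value is given. The library totals implied by the deposited RPKM values (reads scaled to gene length and library total) were 19536459 reads for heat-shocked chromatin, 18364642 for control chromatin, 11131382 for heat-shocked cytoplasm and 8292312 for control cytoplasm. Intervals are exact 95% intervals computed from the reads recovered for each gene. They cover counting error only, since the spread between libraries is not known with 1 library per group. PCR copies of 1 molecule could not be recognised, so the intervals may be too narrow even for counting error. The length behind each RPKM value was on the scale of the whole gene span with introns and not of the spliced transcript, so an RPKM here understates spliced RNA of a long gene relative to a short one. Less RNA per cell and fewer cells that make it cannot be told apart in these bulk samples. The identifiers of other genes could not be paired with names, so fibroblast markers and other chaperone genes were not examined.

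The promoter windows are shown for the 4 genes whose window held a pair of heat shock units and for Dnajb1, the member with the highest ratio after heat shock. The sequences are RefSeq promoter windows of build GRCm38.p6, with 250 bases before and 50 bases after an annotated start. All 8 members matched and had 17 windows. The members not shown are Dnaja2 (chr8:85537633-85555361), Dnajb2 (chr1:75236395-75245692) and Dnajb5 (chr4:42949867-42959425), given by their whole span. The motifs searched were GAANNTTC and TTCNNGAA, each of which reads the same on both strands, their overlap as 3 alternating units (GAANNTTCNNGAA or TTCNNGAANNTTC, a reverse complement of each other), and CCAAT on either strand. Capitals mark pairs or triplets of heat shock units, and CCAAT on either strand in the Dnajb1 window.
Dnajb1 (chr8:83607925-83608224, plus strand): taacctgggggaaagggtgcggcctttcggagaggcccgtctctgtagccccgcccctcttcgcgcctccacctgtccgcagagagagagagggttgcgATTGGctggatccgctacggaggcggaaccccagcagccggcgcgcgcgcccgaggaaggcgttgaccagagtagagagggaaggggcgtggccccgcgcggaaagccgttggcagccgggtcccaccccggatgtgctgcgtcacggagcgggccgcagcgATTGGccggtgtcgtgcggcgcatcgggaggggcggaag
Dnaja1 (chr4:40722218-40722517, plus strand): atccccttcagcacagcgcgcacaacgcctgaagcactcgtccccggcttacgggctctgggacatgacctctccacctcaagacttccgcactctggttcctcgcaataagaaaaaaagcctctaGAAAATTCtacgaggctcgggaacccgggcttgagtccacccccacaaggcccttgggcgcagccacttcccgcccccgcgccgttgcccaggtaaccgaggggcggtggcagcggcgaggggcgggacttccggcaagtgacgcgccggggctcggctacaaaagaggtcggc
Dnajb4 (chr3:152193796-152194095, minus strand): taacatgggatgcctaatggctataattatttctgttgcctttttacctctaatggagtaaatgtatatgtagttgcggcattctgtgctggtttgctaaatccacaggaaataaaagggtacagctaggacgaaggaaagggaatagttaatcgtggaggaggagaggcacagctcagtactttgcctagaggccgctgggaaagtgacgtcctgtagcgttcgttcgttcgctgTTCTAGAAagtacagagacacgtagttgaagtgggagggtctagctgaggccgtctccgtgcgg
Dnajb6 (chr5:29735648-29735947, plus strand): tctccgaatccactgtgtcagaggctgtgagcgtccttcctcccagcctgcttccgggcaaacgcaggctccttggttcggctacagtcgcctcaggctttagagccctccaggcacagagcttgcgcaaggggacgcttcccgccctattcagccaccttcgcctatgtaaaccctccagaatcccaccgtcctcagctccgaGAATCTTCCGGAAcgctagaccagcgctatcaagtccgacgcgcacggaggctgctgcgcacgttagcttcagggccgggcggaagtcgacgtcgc
Dnaja4 (chr9:54699309-54699608, plus strand): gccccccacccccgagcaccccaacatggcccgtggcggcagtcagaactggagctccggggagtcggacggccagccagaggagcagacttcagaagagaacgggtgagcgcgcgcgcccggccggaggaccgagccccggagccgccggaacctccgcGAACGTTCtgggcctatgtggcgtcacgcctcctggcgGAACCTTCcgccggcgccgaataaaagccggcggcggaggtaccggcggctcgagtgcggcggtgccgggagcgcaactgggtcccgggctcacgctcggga

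A pair of heat shock units was present in 5 of the 17 windows, which belong to 4 of the 8 members. The windows of Dnajb6 overlap and hold the same site, so the windows are not independent. Among all promoter windows of the same length, 15.1% of 32851 held such a pair, and 17.0% of 27025 genes had it in at least 1 window. Members had more windows per gene (17 over 8) than all genes (32851 over 27025), so the shares of genes are not directly comparable. Dnajb6 held 3 alternating units at positions -46 to -34 from its first annotated start, an arrangement found in 0.603% of all windows. That motif, like CCAAT, was added after the promoter sequences were seen, so this share cannot show that Dnajb6 is unusual. Dnaja4 held 2 separate pairs in its second window, at positions -90 to -83 and -52 to -45. The pair of Dnaja1 lay at -124 to -117 from its first start, and that of Dnajb4 at -14 to -7 from its second start. That second start of Dnajb4 (position 152193845, minus strand) lies inside the gene, downstream of its first start (152210083). The first windows of Dnajb4 and Dnaja4 and the later windows of Dnaja1 held no pair. No pair was found in the windows of Dnajb1, Dnajb5, Dnaja2 or Dnajb2, which says only that these letters are not in these windows. CCAAT was present in 6 of the 17 windows, which belong to 3 of the 8 members (Dnajb1, Dnaja1 and Dnajb5), where 37.4% of all windows and 41.1% of genes had at least 1. Dnajb1 had 2 matches in its first window. Dnaja1 had 2 in each of its last 2 windows, which overlap each other. Those 2 are 1 stretch, CCAATTGG, read on both strands. Dnajb5 had 4, 4 and 2 in its 3 windows, of which the first 2 overlap and hold the same 4 sites. A match is a description of letters and not a bound site.

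**Figure D1:**
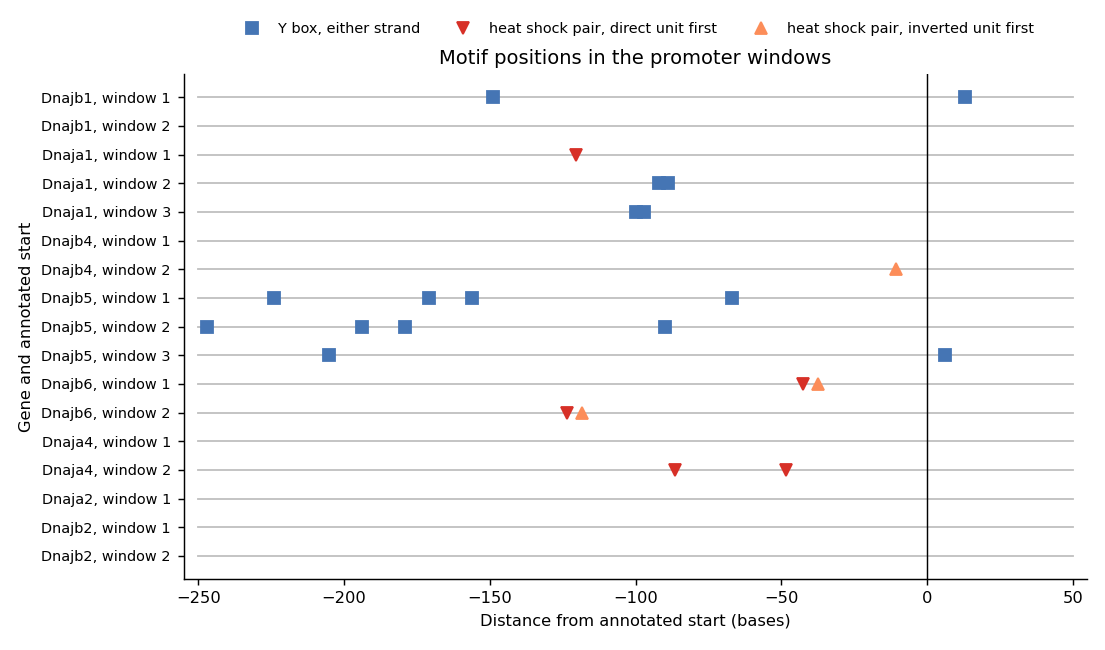
Positions of the motif matches in the 17 promoter windows, with the distance from the annotated start in bases on the horizontal axis and 1 row per gene and annotated start. Triangles are pairs of heat shock units, drawn by which unit comes first, and squares are CCAAT (the Y box) on either strand. Pairs of heat shock units lie in windows of Dnaja1, Dnajb4, Dnajb6 and Dnaja4.

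In chromatin, heat shock against control asks which of these RNAs differed at their genes or on chromatin 3 h into recovery. Dnajb1, Dnaja1 and Dnajb4 were several-fold higher in heat-shocked chromatin, Dnajb6 was moderately higher, Dnaja2 and Dnajb2 were close to their control level, and Dnajb5 was lower. Of the 7 members with at least 50 reads over both libraries, 3 were at least 2-fold higher and 1 at least 2-fold lower, where 17.2% of 12921 genes passed the same threshold upward and 18.5% downward. The median log2 ratio was 0.75 over the 7 members and -0.09 over all genes compared. These counts of members were the same after rescaling both libraries to the same RPKM sum, after setting the median of all genes to 0, and with the 10 genes of highest RPKM left out of the scale. The balance over all genes depended on the scale. Genes higher after heat shock made up 48.1% of those past 2-fold, against 21.0% with the same RPKM sum and 23.1% without the 10 highest genes, which shift every log2 ratio by -0.64 and -0.57.

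Dnajb1, the stress-inducible class B partner of HSP70 in the cytosol and nucleus, had 31.1 RPKM (2264 reads) in heat-shocked chromatin, against 0.774 RPKM (53 reads) in control chromatin. It was 40.2-fold higher after heat shock (30.6 to 53.8), and it ranked 124th of the 12921 genes compared by this ratio. Dnajb1 was 172nd by RPKM among all genes listed in heat-shocked chromatin and 7472nd in control chromatin.

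Dnaja1, a class A protein that partners with HSC70, the HSP70 present without stress, had 14.8 RPKM (4331 reads) in heat-shocked chromatin, against 2.13 RPKM (588 reads) in control chromatin. Its ratio was 6.92 (6.35 to 7.56). Dnajb4, a class B protein closely related to Dnajb1, had 9.46 RPKM (5874 reads) in heat-shocked chromatin, against 2.06 RPKM (1203 reads) in control chromatin. This was a 4.59-fold higher level (4.31 to 4.89). Of all genes compared, 94.5% had a lower ratio than Dnaja1 and 92.6% a lower ratio than Dnajb4. The span of Dnajb4 overlaps the non-coding gene Gm40180 over 11318 bases, 39.2% of its RefSeq span. It also overlaps Fubp1 over 11 bases. That of Dnaja1 overlaps Gm6297 over 374 bases and Mir207 over 79 bases, that of Dnajb6 overlaps Gm5129 over 39 bases, and that of Dnaja4 overlaps Mir5710 over 69 bases. These overlaps are those of the RefSeq spans. The implied lengths of Dnajb6 (82447 bases against 50581), Dnaja1 (15000 against 12498) and Dnajb4 (31792 against 28853) are longer. Any overlap outside the RefSeq spans was not checked. Dnaja1 and Dnajb6 have a pseudogene each in RefSeq (Dnaja1-ps and Dnajb6-ps). Whether reads were counted by strand, and how reads matching several genes were treated, is not given in the sources used here, so the values of these 4 genes are uncertain to that extent.

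Dnajb6, a class B protein known for holding polyglutamine proteins back from aggregation, had 3.10 RPKM (4987 reads) in heat-shocked chromatin, against 1.84 RPKM (2788 reads) in control chromatin. The ratio was 1.68 (1.60 to 1.76), above 1 beyond counting error but under 2-fold. Its log2 value ran from 0.11 to 0.84 over the 5 other scales and pseudocounts tried. Dnaja4, a further class A gene, had 0.0470 RPKM (16 reads) in heat-shocked chromatin, against 0.0125 RPKM (4 reads) in control chromatin. At 20 reads it was below the read minimum, and its 3.76-fold higher level had a wide interval of 1.21 to 15.5.

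Dnajb5, a class B protein also called Hsc40, differed in the other direction. It had 0.117 RPKM (11 reads) in heat-shocked chromatin, against 0.442 RPKM (39 reads) in control chromatin, and so was 3.77-fold lower after heat shock (1.89 to 8.17). Its reads sum to the minimum of 50, and the recovered reads are the smallest whole numbers that give the RPKM values. With reads and length both doubled, the implied length of Dnajb5 would be 9612 bases, against a RefSeq span of 9559 bases, and the interval would be 2.32 to 6.36.

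Dnaja2, a class A gene expressed without stress, had 2.57 RPKM (442 reads) in heat-shocked chromatin and 2.61 RPKM (423 reads) in control chromatin. The ratio was 0.982 (0.858 to 1.12), and its log2 value of -0.03 turned to 0.06 with the all-gene median moved to 0. Dnajb2, a class B protein with ubiquitin-interacting motifs that is best known in neurons, had 1.54 RPKM (280 reads) in heat-shocked chromatin and 1.65 RPKM (282 reads) in control chromatin. The ratio was 0.933 (0.788 to 1.11). Both intervals include a ratio of 1, and both lie well below the ratios of Dnajb1, Dnaja1 and Dnajb4.

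**Figure D2:**
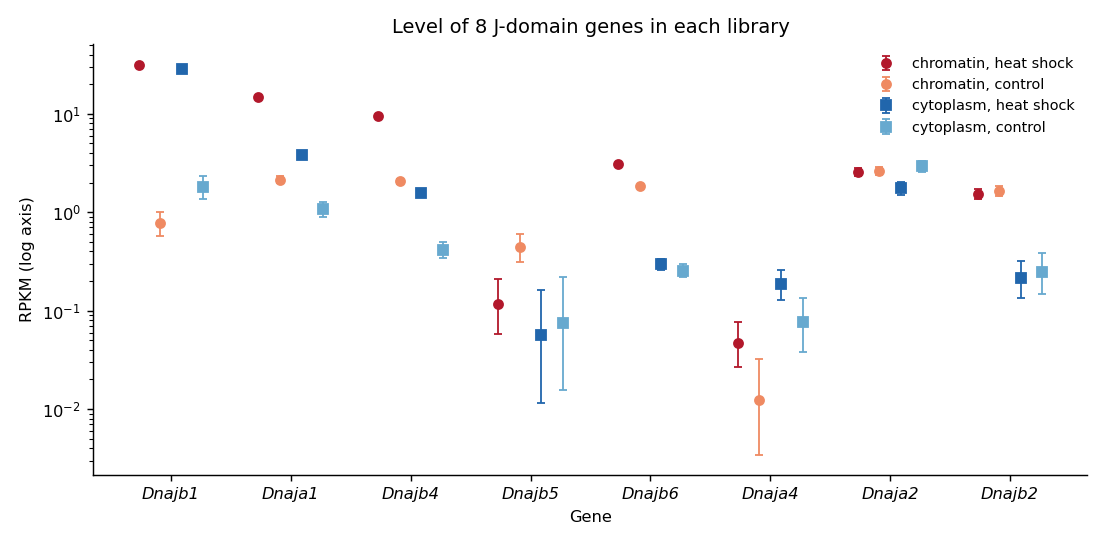
RPKM of each of the 8 genes (horizontal axis) in the 4 libraries on a log axis, with 1 point per library and bars for the exact 95% interval of the reads. Dnajb1, Dnaja1 and Dnajb4 stand higher in both heat-shocked libraries than in the control library of the same fraction, and Dnajb5 and Dnaja4 are the lowest members in heat-shocked chromatin.

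In cytoplasm, the same comparison asks which RNAs differed in the pool that includes translated mRNA. Dnajb1, Dnajb4 and Dnaja1 were again at least 2-fold higher in heat-shocked cells, and no member compared was 2-fold lower. Of the 5 members with at least 50 reads, 3 were at least 2-fold higher and 0 at least 2-fold lower, where 6.43% of 8673 genes passed upward and 21.3% downward. The median log2 ratio was 1.83 over the 5 members and -0.61 over all genes compared, so the median gene was below its control level on this scale. Genes higher after heat shock made up 23.2% of those past 2-fold, against 72.0% with the all-gene median moved to 0, a shift of 0.61 in every log2 ratio. The share was lower on other scales, at 14.0% with the same RPKM sum and 15.7% without the 10 highest genes.

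Dnajb1 had 28.3 RPKM (1176 reads) in heat-shocked cytoplasm, against 1.81 RPKM (56 reads) in control cytoplasm. It was 15.6-fold higher (12.0 to 20.8) and ranked 77th of 8673 genes by this ratio. Dnajb4 had 1.55 RPKM (550 reads) in heat-shocked cytoplasm, against 0.417 RPKM (110 reads) in control cytoplasm, which was 3.72-fold higher (3.03 to 4.61). Dnaja1 was close to it in ratio, with 3.82 RPKM (638 reads) in heat-shocked cytoplasm, against 1.08 RPKM (134 reads) in control cytoplasm, 3.55-fold higher (2.94 to 4.31). Adding 1 RPKM to both values took the log2 ratio of Dnajb4 under 2-fold, to 0.85.

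Dnajb6 had 0.295 RPKM (271 reads) in heat-shocked cytoplasm, against 0.256 RPKM (175 reads) in control cytoplasm. Its ratio was 1.15 (0.950 to 1.40), which is above that of 88.5% of genes compared, and its log2 value of 0.21 turned to -0.02 with the same RPKM sum. Dnaja2 had 1.75 RPKM (172 reads) in heat-shocked cytoplasm, against 2.93 RPKM (214 reads) in control cytoplasm. It was 1.67-fold lower (1.36 to 2.05), near the median gene, since 38.9% of genes had a lower ratio.

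The other members had fewer than 50 cytoplasmic reads over both conditions. Dnaja4 had 0.185 RPKM (36 reads) in heat-shocked cytoplasm, against 0.0760 RPKM (11 reads) in control cytoplasm, a ratio of 2.44 (1.21 to 5.31). Dnajb2 had 0.213 RPKM (22 reads) in heat-shocked cytoplasm and 0.247 RPKM (19 reads) in control cytoplasm, a ratio of 0.863 (0.446 to 1.69) whose log2 value turned to 0.39 with the all-gene median moved to 0. Dnajb5 had 3 reads in each, a ratio of 0.745 (0.0998 to 5.56, or 0.199 to 2.79 with its reads doubled) on the RPKM scale. At this depth no difference of Dnajb2 or Dnajb5 in cytoplasm was detectable.

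**Figure D3:**
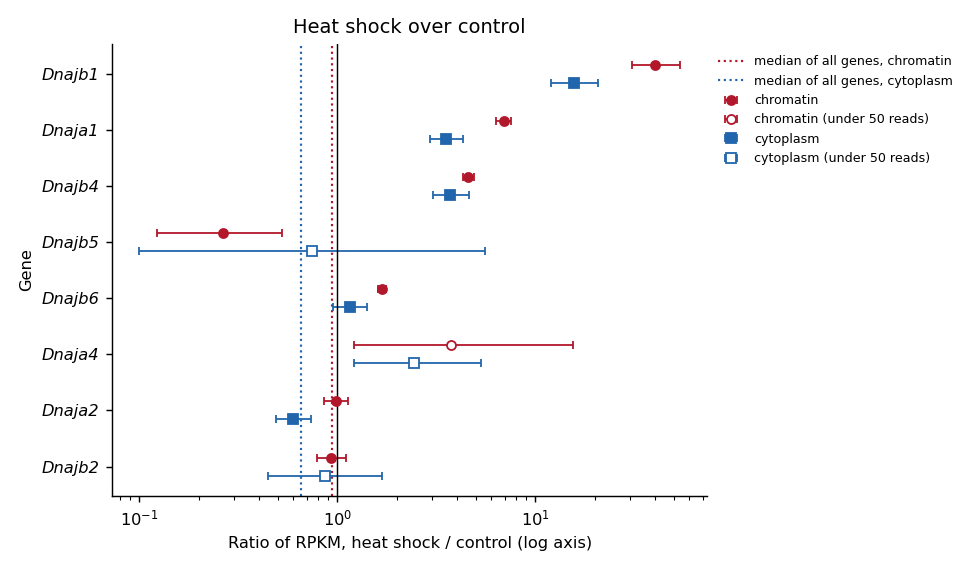
Ratio of RPKM in heat-shocked over control cells for each gene on a log axis, in chromatin (circles) and cytoplasm (squares), with bars for exact 95% counting intervals. Open symbols mark genes with under 50 reads and dotted lines the median of all genes compared. Dnajb1, at 40.2 in chromatin and 15.6 in cytoplasm, lies farthest to the right in both fractions.

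**Figure D4:**
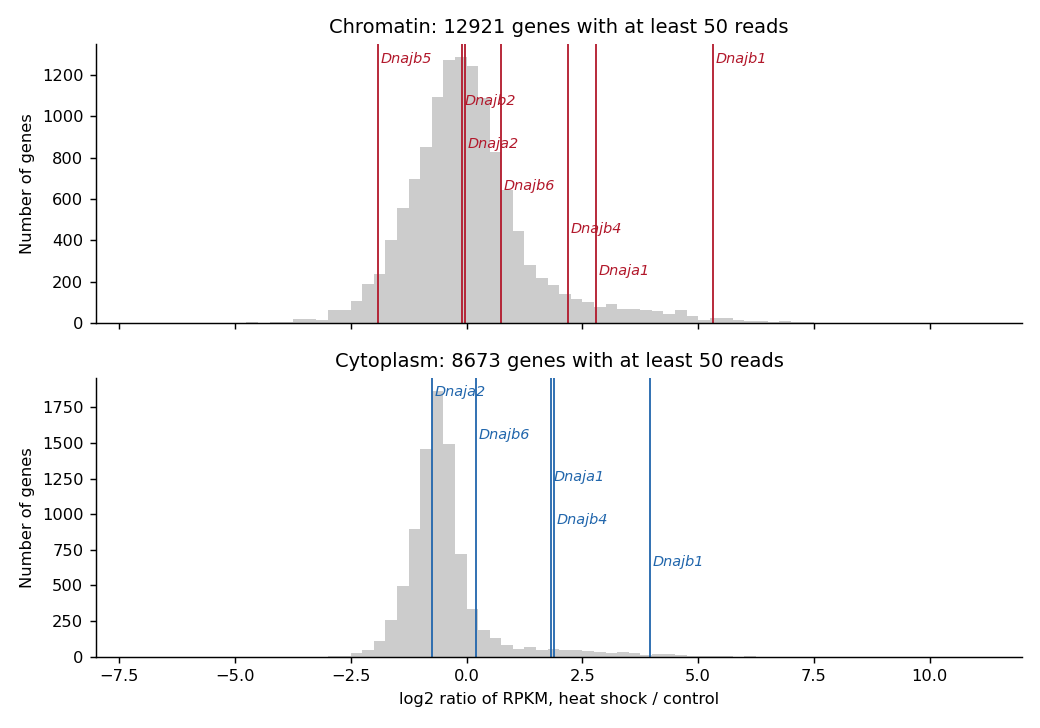
Number of genes by log2 ratio of RPKM in heat-shocked over control cells, for chromatin (12921 genes) and cytoplasm (8673 genes), with members that have at least 50 reads as lines. Dnajb1, Dnaja1 and Dnajb4 lie in the right tail of both panels, and Dnaja2 lies near the middle of both.

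The difference between fractions in the response was then computed as the chromatin ratio over the cytoplasmic ratio. On the deposited scale Dnajb1, Dnaja1, Dnajb4 and Dnaja4 were higher beyond counting error in both fractions, Dnaja4 from under 50 reads in each comparison. For Dnajb6, Dnaja2, Dnajb2 and Dnajb5 the interval included a ratio of 1 in at least 1 fraction. Whether the direction of these members is shared by both fractions is therefore not settled. The chromatin ratio of Dnajb1 was 2.57 times its cytoplasmic ratio (1.72 to 3.84), and that of Dnaja1 was 1.95 times (1.58 to 2.40). Dnaja2 gave 1.64 (1.28 to 2.10) and Dnajb6 gave 1.46 (1.19 to 1.78). The median over the 8440 genes compared in both fractions was 1.40, so the intervals of Dnajb1 and Dnaja1 lie above the median gene while those of Dnaja2 and Dnajb6 include it.

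For Dnajb4 the chromatin ratio was 1.23 times the cytoplasmic one (0.986 to 1.53), and the log2 value of 0.30 changed sign under 3 of 5 alternatives, down to -0.22. The intervals of Dnajb5 (0.0426 to 3.12, or 0.0867 to 1.49 with its reads doubled), Dnaja4 (0.377 to 7.64) and Dnajb2 (0.541 to 2.15) were too wide to set either fraction above the other. No difference between fractions was tested over replicates.

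Chromatin against cytoplasm asks where each RNA was found at higher RPKM. With values per whole gene span, unspliced and spliced RNA are not told apart in these ratios or in the orders built on them. In heat-shocked cells 4 of the 7 members compared were higher in chromatin by 2-fold or more and 1 was lower by as much, where 76.7% of 12103 genes were higher and 5.24% lower by the same rule. In control cells 3 of 6 were higher in chromatin by 2-fold or more and 1 was lower, where 69.3% of 11068 genes were higher and 6.31% lower. The median gene was 4.50-fold higher in chromatin after heat shock and 3.48-fold higher in control cells. With that median set to 0, genes higher in chromatin made up 45.9% of those past 2-fold after heat shock and 47.5% in control cells, against 93.6% and 91.7% on the deposited scale. With the same RPKM sum every log2 ratio of chromatin to cytoplasm was instead higher, by 1.25 after heat shock and by 1.67 in control cells. The order of the members within a library pair is the same on each of these scales.

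After heat shock the order from chromatin to cytoplasm was Dnajb6, Dnajb2, Dnajb4, Dnaja1, Dnajb5, Dnaja2, Dnajb1 and Dnaja4. Dnajb6 was 10.5-fold higher in chromatin than in cytoplasm (9.28 to 11.9), above 82.9% of genes compared. Dnajb2 was 7.25-fold higher (4.70 to 11.8) and Dnajb4 6.09-fold higher (5.57 to 6.65), with overlapping intervals. Dnaja1 was 3.87-fold higher in chromatin (3.56 to 4.21), below the median gene, and its log2 ratio of 1.95 was 3.21 with the same RPKM sum and turned to -0.21 with the all-gene median moved to 0.

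Dnajb1 was nearly even between the fractions after heat shock, at a ratio of 1.10 (1.02 to 1.18), and 12.0% of genes had a lower ratio. That depended on the scale, since its log2 ratio of 0.13 was 1.39 with the same RPKM sum, past 2-fold toward chromatin, and -2.03 with the all-gene median moved to 0, past 2-fold toward cytoplasm. Dnaja2 had a ratio of 1.46 (1.22 to 1.76), and its log2 ratio of 0.55 was 1.80 with the same RPKM sum and turned to -1.61 with the median moved to 0. Dnaja4 was 3.95-fold lower in chromatin than in cytoplasm (2.14 to 7.62) from 16 and 36 reads, and 2.59% of genes had a lower ratio. Dnajb5, with 11 chromatin and 3 cytoplasmic reads, had a ratio of 2.09 (0.552 to 11.7, or 0.822 to 6.30 with its reads doubled). Its log2 ratio of 1.06 was 2.32 with the same RPKM sum and turned to -1.10 with the all-gene median moved to 0.

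In control cells the order was Dnajb6, Dnajb2, Dnajb5, Dnajb4, Dnaja1, Dnaja2, Dnajb1 and Dnaja4. Dnajb6 was 7.19-fold higher in chromatin than in cytoplasm (6.17 to 8.43), Dnajb2 6.70-fold higher (4.21 to 11.3) and Dnajb4 4.94-fold higher (4.06 to 6.06). Dnajb5 was 5.87-fold higher (1.87 to 29.7) from 39 and 3 reads, under the read minimum. With its reads doubled it would pass that minimum, with an interval of 2.58 to 16.5, and 4 of 7 members would be at least 2-fold higher in control chromatin and 1 lower, in place of 3 and 1 of 6. Dnaja1 was 1.98-fold higher (1.64 to 2.41), with its log2 ratio of 0.99 at 2.65 with the same RPKM sum and at -0.80 once the median of all genes was set to 0.

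Dnajb1 was 2.34-fold lower in control chromatin than in control cytoplasm (1.58 to 3.47), and its log2 ratio of -1.23 turned to 0.44 with the same RPKM sum and was -3.01 with the all-gene median moved to 0. Of all genes compared, 5.24% had a lower ratio. Dnaja2 had a ratio of 0.893 (0.755 to 1.06), and its log2 value of -0.16 turned positive with the same RPKM sum and when the 10 highest genes were left out of the scale (0.38), and was -1.95 with the all-gene median moved to 0. Dnaja4 was 6.09-fold lower in chromatin (1.80 to 26.2) from 4 and 11 reads. The comparisons of fractions and of conditions share libraries and are not independent of each other.

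**Figure D5:**
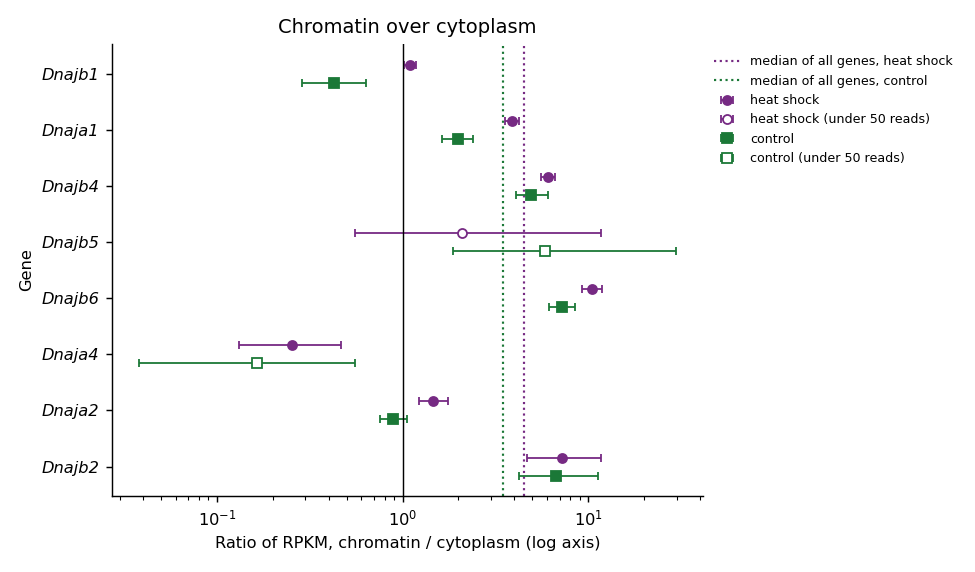
Ratio of RPKM in chromatin over cytoplasm for each gene on a log axis, in heat-shocked cells (circles) and control cells (squares), with bars for exact 95% counting intervals, open symbols for under 50 reads and dotted lines for the median of all genes compared. Dnajb6, Dnajb2 and Dnajb4 lie right of both dotted lines, while Dnajb1, Dnaja2 and Dnaja4 lie left of them.

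The levels of the members were also ordered within each library, on the RPKM scale per whole gene span. These orders depend on the implied lengths, which differ from the RefSeq spans to different extents. Dnajb6 has 82447 bases against 50581, and Dnajb1 has 3728 against 4479. On RefSeq spans Dnajb6 would have a higher RPKM and Dnajb1 a lower one, so places in the orders could change. The counting intervals do not cover this, and orders on RefSeq spans were not computed. In heat-shocked chromatin the order was Dnajb1, Dnaja1, Dnajb4, Dnajb6, Dnaja2, Dnajb2, Dnajb5 and Dnaja4, and every neighbouring pair differed beyond counting error. In control chromatin it was Dnaja2, Dnaja1, Dnajb4, Dnajb6, Dnajb2, Dnajb1, Dnajb5 and Dnaja4. There, Dnaja1 and Dnajb4 did not differ beyond counting error (ratio 1.04, 0.937 to 1.14), nor did Dnajb6 and Dnajb2 (1.11, 0.985 to 1.26). Dnajb1 was the first member after heat shock and the sixth in control chromatin.

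In heat-shocked cytoplasm the order was Dnajb1, Dnaja1, Dnaja2, Dnajb4, Dnajb6, Dnajb2, Dnaja4 and Dnajb5. Within counting error were Dnaja2 and Dnajb4, Dnajb6 and Dnajb2, and Dnajb2 and Dnaja4. In control cytoplasm Dnaja2 came first, before Dnajb1, Dnaja1, Dnajb4, Dnajb6, Dnajb2, Dnaja4 and Dnajb5. There, Dnajb6 and Dnajb2 did not differ beyond counting error, nor did Dnaja4 and Dnajb5. Dnajb1 made up 49.6% of the summed RPKM of the 8 members in heat-shocked chromatin, against 6.71% in control chromatin. In cytoplasm its share was 78.2% after heat shock, against 26.3% in control cells. Dnajb1 has the shortest implied length of the 8 members (3728 bases, against 82447 for Dnajb6). Shares of RPKM per gene span therefore understate spliced RNA of the longer members and are not shares of molecules. Dnaja2 had 4.09% of the sum in heat-shocked chromatin, against 22.7% in control chromatin, and 4.84% in heat-shocked cytoplasm, against 42.5% in control cytoplasm.

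Genes with the pattern most like that of Dnajb1 were sought among 11491 genes listed in all 4 libraries with at least 100 reads in all. Likeness was the Euclidean distance of log2 RPKM, centred on each gene's mean, over the 4 libraries. The nearest gene was ENSMUSG00000030450, at a distance of 0.69, with 100 reads in heat-shocked chromatin against 2 in control chromatin, and 64 in heat-shocked cytoplasm against 4 in control cytoplasm. The second was ENSMUSG00000079235, at 0.71. The nearest 5 genes had 2 to 6 reads in every control library, so their distances rest on few reads. Among the members, Dnaja1 was 177th (distance 3.09) and Dnajb4 523rd (4.01), while Dnaja2 was 3075th (5.09), Dnajb6 5316th (5.57) and Dnajb2 6906th (5.89). Dnajb5 and Dnaja4 had fewer than 100 recovered reads and were not ranked. With its reads doubled (22 and 78 in heat-shocked and control chromatin, 6 in each cytoplasm) Dnajb5 would pass that minimum.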

How the data were processed

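RNA-seq of 4 libraries (chromatin and cytoplasm, heat-shocked and control) was analysed. The other 4 libraries of the series (N6-methyladenosine immunoprecipitates and inputs) were not analysed here. The authors deposited 1 RPKM value per Ensembl gene. Cutadapt, STAR and GRCm38 are named without versions, per the submitters' processing notes. The counter, annotation and strand handling are each not given in the sources used here. Libraries were made from gel-selected short RNA fragments, per the labels' protocols.

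Library totals were recovered as the greatest common divisor of inverse RPKM values (whole within 0.002, from 20000 random pairs; the largest divisor with at least 0.5 of the top count). Reads and length per gene were the smallest whole numbers that give the values in all 4 libraries, so some are too small by a common factor. They summed to 98.4% to 99.7% of the totals. The recovery of reads and the 2-fold rule were run on simulated libraries with counting error only, with the all-gene median set to 0. That run does not check the calls on the deposited scale or any spread between libraries. The implied lengths were 3728 bases for Dnajb1 (RefSeq span 4479), 15000 for Dnaja1 (12498), 31792 for Dnajb4 (28853), 4806 for Dnajb5 (9559), 82447 for Dnajb6 (50581), 17443 for Dnaja4 (17470), 8816 for Dnaja2 (17729) and 9287 for Dnajb2 (9298).

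Ratios are of RPKM without a pseudocount. Genes with at least 50 reads over both libraries were compared and counted as called at 2-fold, and a gene with 0 reads was set to 3. Ratio intervals are Clopper-Pearson, level intervals exact Poisson, and intervals of the difference between fractions come from the conditional odds ratio. All 8 members are named, and the genes most like Dnajb1 were taken by a fixed distance rule. Lists of other J-domain genes, HSP70 proteins, HSF regulators and cell type markers were planned, but 0 RefSeq rows carried an Ensembl identifier, so none was matched or reported. The members, lists and rules were chosen with earlier results of these data known, and the motifs for CCAAT and for 3 alternating units were added after the promoter sequences were seen. Python 3.11.15, numpy 2.4.6, pandas 2.3.3, scipy 1.17.1 and matplotlib 3.10.9 were used.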

Additional observations from a re-analysis of the deposited data

How the results depend on the processing

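No paired analysis was possible because each group has 1 library. With 1 library per group no replicate could be left out, and the depth limits Dnajb5, Dnaja4 and, in cytoplasm, Dnajb2. Members past 2-fold numbered 4 in chromatin and 3 in cytoplasm after heat shock, and 5 (heat shock) and 4 (control) between fractions. Adding 1 RPKM, among genes averaging 1 RPKM or more, left 3 and 2 between fractions, with 5 members compared. Every other total of members stayed within 1.5 times, including reads doubled for Dnajb5 and Dnaja2, which was chosen after seeing the data. Between fractions the members past 2-fold were 4 higher and 1 lower in chromatin (heat shock) and 3 and 1 (control), but 1 and 3, and 1 and 2, with the all-gene median moved to 0, and 6 and 0, and 5 and 0, with the same RPKM sum. Over all genes, 4610 were past 2-fold in chromatin after heat shock, against 719 with 1 RPKM added, 2989 at a minimum of 200 reads and 9341 with no filter. In cytoplasm 2407 were past 2-fold, against 1157 with the median moved to 0, 3641 with the same RPKM sum, 334 with 1 RPKM added, 892 with 0.1 RPKM added, 925 at 200 reads and 5999 with no filter. Between fractions 9923 (heat shock) and 8368 (control) were past it, against 2513 and 2121 with 1 RPKM added. For heat-shocked cells 5808 were past it with the median set to 0 and 15275 with no filter. Of 185 values of single members and their fraction differences under alternatives, 19 changed sign. Among members past 2-fold, this was Dnaja1 between fractions after heat shock (-0.21 on the log2 scale, median set to 0) and Dnajb1 between fractions in control cells (0.44, same RPKM sum).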
